A study of Mus musculus with 12 samples.

Results

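The transcripts of 10 receptors that bind and take up particles, modified lipoproteins, glycoproteins or dying cells were described in mouse embryonic fibroblasts (MEFs), out of 55573 genes in the count table. They were Marco, Msr1, Mrc1, Cd163, Cd36, Stab1, Scarb1, Colec12, Mertk and Axl, taken as the rows whose Ensembl identifiers carry these symbols. The set was selected on measured values, because Marco and Mrc1 had been seen to be higher with vitamin B12, so the B12 differences of these genes are given as a description with no p-value, and counts of them past a threshold support nothing. Of the 10 genes, 9 passed the filter on low counts and Cd163 did not.

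The cells were grown from C57BL/6 embryos (E13.5) and carry a doxycycline-inducible cassette of Oct4, Sox2, Klf4 and Myc (OSKM), the factors that turn fibroblasts into induced pluripotent stem cells. All 12 libraries came from cells kept for 72 h in the medium used for pluripotent cells: without doxycycline (MEF), without doxycycline but with 2 µM B12 (MEF+B12), with 1 µg/ml doxycycline (OSKM), or with 1 µg/ml doxycycline and 2 µM B12 (OSKM+B12). Each of 3 embryos, called clones 1, 2 and 3, gave 1 library to every group, so each group has n = 3 and B12 or induction can be compared in 6 pairs of libraries. Only the induced cells received doxycycline, so effects of the drug and of the factors cannot be told apart. Titles of the clone 1 libraries bear a later year than those of the other clones, so year and clone cannot be told apart for clone 1.

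Library totals ranged from 56971244 to 79236795 counted read pairs. The induced factor Pou5f1 (Oct4) had 18.5 to 20.7 CPM (counts per 1e+06 counted pairs) under doxycycline in clones 1 and 2 but only 2.86 and 2.34 CPM in clone 3, against at most 0.468 CPM without doxycycline. Clone 3 thus had the lowest factor level under induction. Fibroblast transcripts such as Col1a1 (25440 to 45820 CPM) were abundant in every library, and macrophage markers such as Lyz2 (739 to 1759 CPM) and Csf1r (71.9 to 219 CPM) were also present throughout, with no sorting step named in the labels. The OSKM library of clone 1 stood apart in an earlier analysis of these data, and calls that change without it are given as such.

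Scavenger receptors are surface proteins that recognise altered self molecules and microbial surfaces, often through negatively charged or sugar ligands, and deliver them to lysosomes. Efferocytosis is the clearance of apoptotic cells. In that process soluble proteins such as Gas6 and protein S bridge phosphatidylserine on the dying cell to the TAM receptor kinases Tyro3, Axl and Mertk on the phagocyte. Marco, Msr1, Mrc1, Cd163 and Stab1 are best known from tissue macrophages, Cd36 also from fat, muscle and endothelium, whereas Axl and Colec12 are also made by stromal cells.

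Promoter sequences are shown for 4 receptors: Marco, Mrc1 and Stab1, which were higher with B12 as described below, and Mertk, which hardly differed. Windows were also held for Cd36, likewise higher with B12, and for Axl, which hardly differed. These are not printed, and their letters are counted below. RefSeq promoter windows on GRCm38.p6 were held for 7 of the 10 genes. The bases before the start site that overlap no annotated exon are printed 5′ to 3′ on the strand of the gene. Capitals mark GAGGAA or its reverse complement TTCCTC, the core letters bound by the macrophage factor PU.1.
Marco, chr1:120505025-120505274, minus strand: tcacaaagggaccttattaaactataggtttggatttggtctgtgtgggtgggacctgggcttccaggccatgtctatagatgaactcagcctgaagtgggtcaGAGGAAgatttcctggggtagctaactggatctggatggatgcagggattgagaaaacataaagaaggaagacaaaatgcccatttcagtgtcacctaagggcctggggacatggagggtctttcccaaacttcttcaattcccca
Mrc1, chr2:14229164-14229391, plus strand: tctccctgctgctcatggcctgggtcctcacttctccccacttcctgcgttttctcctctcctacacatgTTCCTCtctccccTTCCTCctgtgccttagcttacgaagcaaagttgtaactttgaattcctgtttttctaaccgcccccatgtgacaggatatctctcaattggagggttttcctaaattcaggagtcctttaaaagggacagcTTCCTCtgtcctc
Stab1, chr14:31168642-31168891, minus strand: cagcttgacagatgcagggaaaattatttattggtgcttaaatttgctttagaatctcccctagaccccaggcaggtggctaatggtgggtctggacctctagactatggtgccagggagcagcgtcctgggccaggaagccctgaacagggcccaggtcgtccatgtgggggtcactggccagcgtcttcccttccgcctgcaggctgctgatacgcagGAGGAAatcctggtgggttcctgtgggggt
Mertk, chr2:128698665-128698914, plus strand: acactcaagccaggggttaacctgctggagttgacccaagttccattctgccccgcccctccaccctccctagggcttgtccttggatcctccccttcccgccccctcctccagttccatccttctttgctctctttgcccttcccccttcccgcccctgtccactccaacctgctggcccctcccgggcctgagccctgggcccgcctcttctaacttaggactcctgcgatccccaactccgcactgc
The letters occurred 3 times in the Mrc1 window of 228 bases, 1 time each in the 250 bases of Marco and Stab1, and 0 times in the 250 bases of Mertk. They occur in 23.3% of all 32851 RefSeq windows of 250 bases. The Axl window, not printed, also held them 1 time, and a window of Cd36 held them 0 times. The GC box letters GGGCGG or CCGCCC, found in 32.7% of all windows, occurred 3 times in Mertk, 1 time in Mrc1 and 0 times in Marco and Stab1. In the windows not printed they occurred 2 times in Cd36 and 1 time in Axl. No match of either kind overlapped the other. The Marco window had 47.6% G or C and 0 CG dinucleotides, and that of Mertk had 63.6% and 7. These are descriptions of letters and not of binding.

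The receptors spanned a wide range of levels. Per kilobase of exon and averaged over the 12 libraries, Axl (77.5 ± 8.25 CPM per kb, mean ± SD) and Colec12 (65.8 ± 3.93) were the highest. Mrc1 (42.2 ± 18.6), Stab1 (29.4 ± 13.8) and Cd36 (19.2 ± 6.97) followed. Scarb1 (9.38 ± 0.945), Msr1 (8.47 ± 3.41) and Mertk (5.24 ± 0.471) were lower, and Marco (1.93 ± 1.64) was the lowest of the 9 genes tested. In the 3 untreated MEF libraries the order by level per kb was the same, and the ranges of Mrc1 and Stab1, of Stab1 and Cd36, of Cd36 and Scarb1, of Scarb1 and Msr1 and of Msr1 and Mertk overlapped, while those of Axl and Colec12, of Colec12 and Mrc1 and of Mertk and Marco did not.

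**Figure D1:**
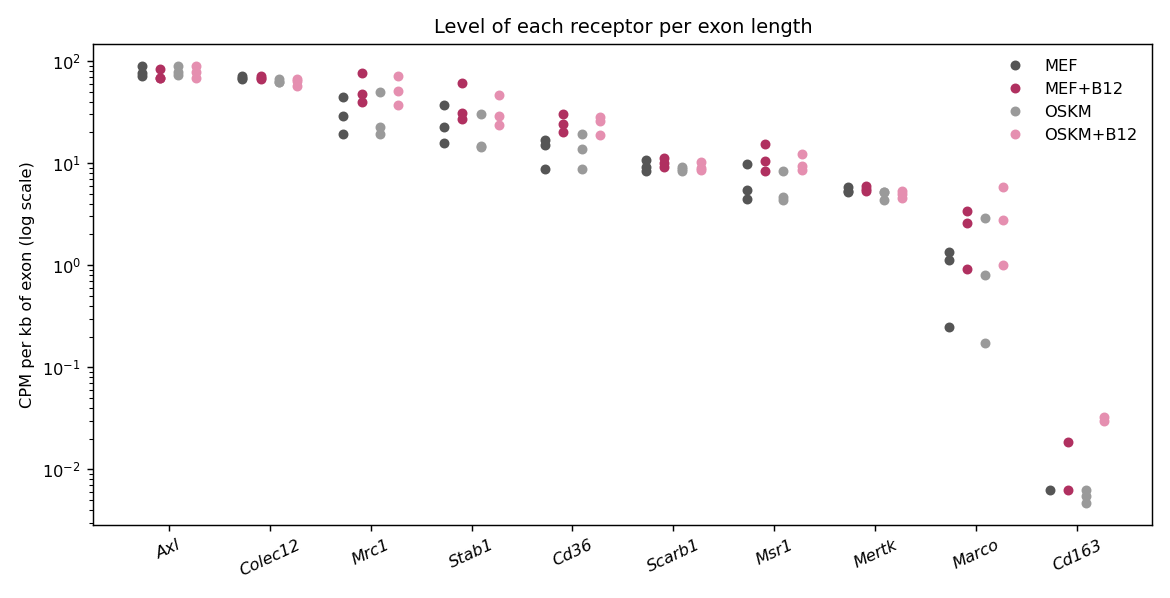
CPM per kilobase of exon on a log axis for each receptor, with 1 point per library coloured by group, 3 points per group. Axl and Colec12 lie at the top with little spread and Marco spreads most among the 9 tested genes, from 0.173 to 5.86 CPM per kb. The 4 libraries in which Cd163 had 0 counts are not drawn.

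The same order of abundance did not hold for spread. Between the lowest and the highest library, Marco varied 33.8-fold in CPM, while Stab1 varied 4.25-fold, Mrc1 4.01-fold, Msr1 3.59-fold and Cd36 3.41-fold. Mertk varied 1.39-fold, Scarb1 1.35-fold, Axl 1.32-fold and Colec12 1.25-fold. Over the 12 libraries the log2 CPM of Msr1, Mrc1 and Stab1 had pairwise Pearson correlations of 0.961 to 0.974, those of Marco with these 3 genes and with Cd36 were 0.792 to 0.922, and Mertk, Axl and Colec12 had correlations of -0.527 to 0.570 with each other. These are descriptions over libraries that share clones and treatments.

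With B12, the receptors differed mainly in the size of the difference. Marco, Msr1, Mrc1, Cd36 and Stab1 were higher with B12 in 6 of 6 pairs, with average differences of 1.6-fold to 2.8-fold. Scarb1 was also higher in 6 of 6 pairs, but by at most 0.17 on the log2 scale. Colec12, Mertk and Axl differed by less than 0.17 in either direction in every pair. As a description of the edgeR fit, Marco, Msr1, Mrc1, Cd36 and Stab1, 5 of 9 genes fitted, lay past the threshold for B12 averaged over both states. Over all genes 3.84% passed, 3.46% as higher and 0.381% as lower, and 8.00% were higher in all 6 pairs, against 6 of these 9. Since the set was chosen on this contrast, nothing is read from these counts.

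Among the class A scavenger receptors, Marco (ENSMUSG00000026390, GRCm38 chromosome 1, 120474538 to 120505024, minus strand), a trimeric receptor for bacteria and inhaled particles, had 2.17, 2.58 and 0.473 CPM in MEF for clones 1, 2 and 3. With B12 it had 5.02, 6.49 and 1.78 CPM. After induction it had 5.55, 1.54 and 0.334 CPM without B12. The corresponding OSKM+B12 libraries had 11.3, 5.36 and 1.94 CPM. Every B12 library was above its partner, but the groups overlapped because clone 3 with B12 lay below clone 1 without it in both states. The counts behind these values ran from 26 to 767 per library. The B12 difference was 1.47 ± 0.29 on the log2 scale (average over both states, ± standard error), which is 2.76-fold, and it ranged over the pairs from 1.02 in OSKM of clone 1 to 2.43 in OSKM of clone 3.

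Msr1 (ENSMUSG00000025044, chromosome 8, 39581685 to 39642673, minus strand), the macrophage receptor for modified low-density lipoprotein, had 62.7, 34.6 and 28.0 CPM in MEF for clones 1, 2 and 3 and 98.3, 66.9 and 53.3 CPM in MEF+B12. It had 53.3, 29.3 and 27.4 CPM in OSKM and 77.4, 58.7 and 54.4 CPM in OSKM+B12. In OSKM all 3 libraries with B12 were above all 3 without it. The difference was 0.84 ± 0.07, or 1.79-fold.

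Colec12 (ENSMUSG00000036103, chromosome 18, 9707595 to 9882644, plus strand), a collectin with a scavenger receptor domain that is made by endothelial and stromal cells, lay between 577 and 617 CPM in MEF and MEF+B12. It lay between 494 and 585 CPM in OSKM and OSKM+B12. Its B12 difference was -0.02 ± 0.04, positive in 4 and negative in 2 of 6 pairs. Stretches of 31 bases shared with other genes made up 6.84% of its sequence, against at most 0.74% for the other 9 receptors.

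Of the receptors for glycoproteins, Mrc1 (ENSMUSG00000026712, chromosome 2, 14229392 to 14332057, plus strand), the mannose receptor CD206, had 284, 185 and 123 CPM in MEF for clones 1, 2 and 3 and 487, 302 and 251 CPM in MEF+B12. It had 314, 143 and 121 CPM in OSKM and 450, 327 and 237 CPM in OSKM+B12. Clone 1 was the highest in all 4 groups and clone 3 the lowest. The difference with B12 was 0.86 ± 0.08, or 1.82-fold, and ranged over the pairs from 0.52 in OSKM of clone 1 to 1.20 in OSKM of clone 2.

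Cd163 (ENSMUSG00000008845, chromosome 6, 124304656 to 124330527, plus strand), the macrophage receptor for haemoglobin bound to haptoglobin, was at the limit of detection. Its 12 libraries held 39 counts in all, and 4 of them held 0. Clone 1 had 2 counts in MEF and 7 with B12, and in OSKM it had 2 counts and 11 with B12. Clone 2 had 0, 2, 2 and 11 counts in the same order, and clone 3 had 0, 0, 2 and 0. Both libraries with 11 counts were from OSKM+B12. Cd163 did not pass the filter on low counts with all 12 libraries and was not tested in that fit. It entered some alternative fits, with fewer libraries or no filter, and no direction is drawn from it at this depth.

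Of the class B receptors, Cd36 (ENSMUSG00000002944, chromosome 5, 17781690 to 17888801, minus strand), which takes up long-chain fatty acids and oxidised lipoprotein, had 60.9, 54.4 and 31.7 CPM in MEF for clones 1, 2 and 3 and 86.3, 108 and 71.6 CPM in MEF+B12. It had 68.6, 49.6 and 31.7 CPM in OSKM and 93.1, 101 and 68.1 CPM in OSKM+B12. In MEF the 3 libraries with B12 were above the 3 without it, and in OSKM clone 3 with B12 was just below clone 1 without it. The difference was 0.87 ± 0.10, or 1.83-fold, and it was between 0.44 and 0.50 in the pairs of clone 1 and between 0.99 and 1.17 in those of clones 2 and 3.

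Scarb1 (ENSMUSG00000037936, chromosome 5, 125277087 to 125341094, minus strand), the high-density lipoprotein receptor that exchanges cholesterol, lay between 70.9 and 95.8 CPM in the 12 libraries. It was higher with B12 in 6 of 6 pairs, but by 0.03 to 0.17, with an average of 0.10 ± 0.04 or 1.07-fold. This was the smallest difference among the 6 genes that were higher in every pair.

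Stab1 (ENSMUSG00000042286, chromosome 14, 31139013 to 31168641, minus strand), stabilin-1, a class H receptor that clears acetylated lipoprotein and matrix fragments, had 382, 231 and 162 CPM in MEF for clones 1, 2 and 3 and 631, 317 and 275 CPM in MEF+B12. It had 310.5, 151 and 148 CPM in OSKM and 478.5, 298 and 243 CPM in OSKM+B12. The difference with B12 was 0.71 ± 0.06, or 1.63-fold, and ranged over the pairs from 0.46 to 0.98. An exon of Nt5dc2 overlaps Stab1 on the opposite strand, and the counts were made by strand.

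**Figure D2:**
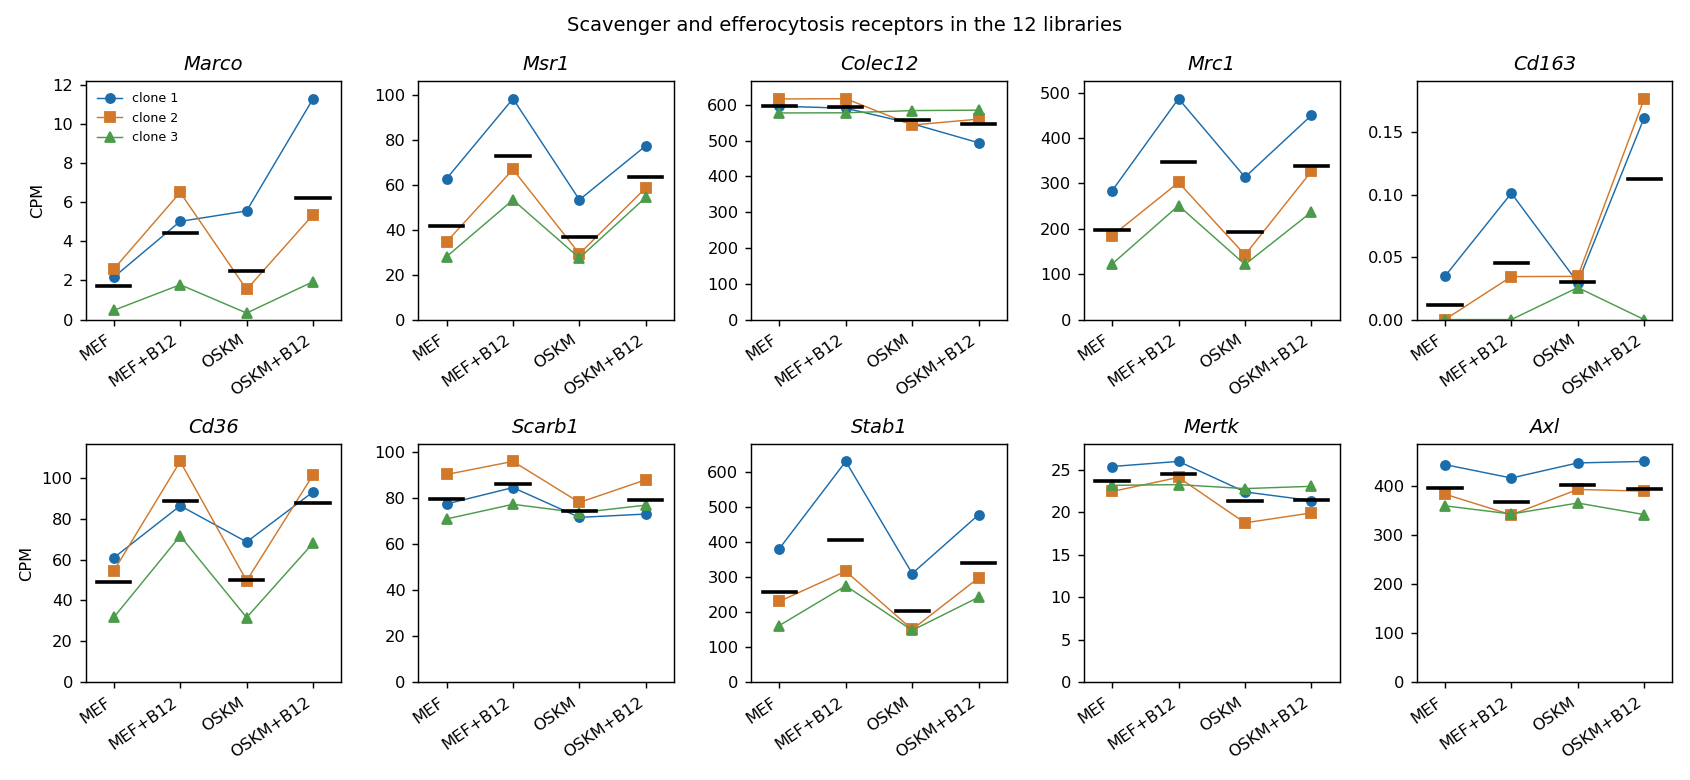
CPM of each receptor in the 12 libraries, in groups along the horizontal axis, with clones as coloured lines and the mean of 3 libraries as a black bar. All vertical axes start at 0. Marco, Msr1, Mrc1, Cd36 and Stab1 step up with B12 in every clone, while Colec12, Scarb1, Mertk and Axl stay within 1.25-fold to 1.39-fold.

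The TAM receptors showed no such step. Mertk (ENSMUSG00000014361, chromosome 2, 128698956 to 128802894, plus strand), the kinase that drives engulfment of apoptotic cells, had 25.4, 22.5 and 23.2 CPM in MEF for clones 1, 2 and 3 and 26.0, 24.1 and 23.3 CPM in MEF+B12. It had 22.4, 18.8 and 22.8 CPM in OSKM and 21.4, 19.9 and 23.1 CPM in OSKM+B12. Its B12 difference was 0.03 ± 0.05. Axl (ENSMUSG00000002602, chromosome 7, 25757273 to 25788705, minus strand), the other TAM receptor of the set, lay between 342 and 451 CPM, and its B12 difference was -0.07 ± 0.03, negative in 5 of 6 pairs.

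Macrophage markers were also higher with B12. Of 12 listed markers, 10 passed the threshold as higher (median log2 difference 0.54, against -0.01 over all genes) and 0 as lower. Over all genes 3.46% passed as higher and 0.381% as lower. The marker list was chosen with earlier results of these data known, so its calls and adjusted p only describe the fit. Fcgr1, a high-affinity IgG receptor, was higher by 0.95 ± 0.10 (adjusted p = 0.00044), Csf1r, the receptor for colony-stimulating factor 1, by 0.71 ± 0.08 (adjusted p = 0.000773) and Cd68, a lysosomal glycoprotein, by 0.67 ± 0.10 (adjusted p = 0.00429). The markers that did not pass were Aif1 (0.42 ± 0.13, adjusted p = 0.127) and Cx3cr1 (-0.45 ± 0.20, adjusted p = 0.296). The summed CPM of the 12 markers ranged from 1231 to 2261 in MEF without and 1819 to 2872 with B12, and from 1224 to 2004 in OSKM without and 1847 to 2214 with B12, and no marker of the list was at 0. It was higher with B12 in all 6 pairs. In these bulk samples more cells of a type and more RNA per cell cannot be told apart, and the part of the macrophage markers in the receptor differences was not tested.

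The receptors were also set beside the median marker within each pair, which uses the same pair differences and is no further support for them. The median marker difference was 0.40, 0.62 and 0.67 in MEF and 0.24, 0.79 and 0.65 in OSKM for clones 1, 2 and 3. Marco, Msr1, Mrc1 and Cd36 exceeded it in 6 of 6 pairs and Stab1 in 5 of 6, whereas Scarb1, Colec12, Mertk and Axl were below it in all 6. The pairs of clone 1 had the smallest median marker difference in both states and also the smallest differences of Marco, Msr1 and Cd36. For Mrc1 and Stab1 this held only in OSKM. In MEF their smallest differences were in clone 2 (0.71 and 0.46, against 0.78 and 0.73 in clone 1). Over the 12 libraries, the correlation of log2 CPM with the log2 of the summed markers was 0.975 for Msr1, 0.953 for Mrc1, 0.941 for Stab1, 0.885 for Cd36 and 0.832 for Marco. It was 0.444 for Scarb1, 0.435 for Mertk, 0.357 for Axl and 0.021 for Colec12. The sum adds unscaled CPM, so Lyz2 (mean 1182 CPM) weighs most in it, with Laptm5 (mean 230 CPM) next.

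**Figure D3:**
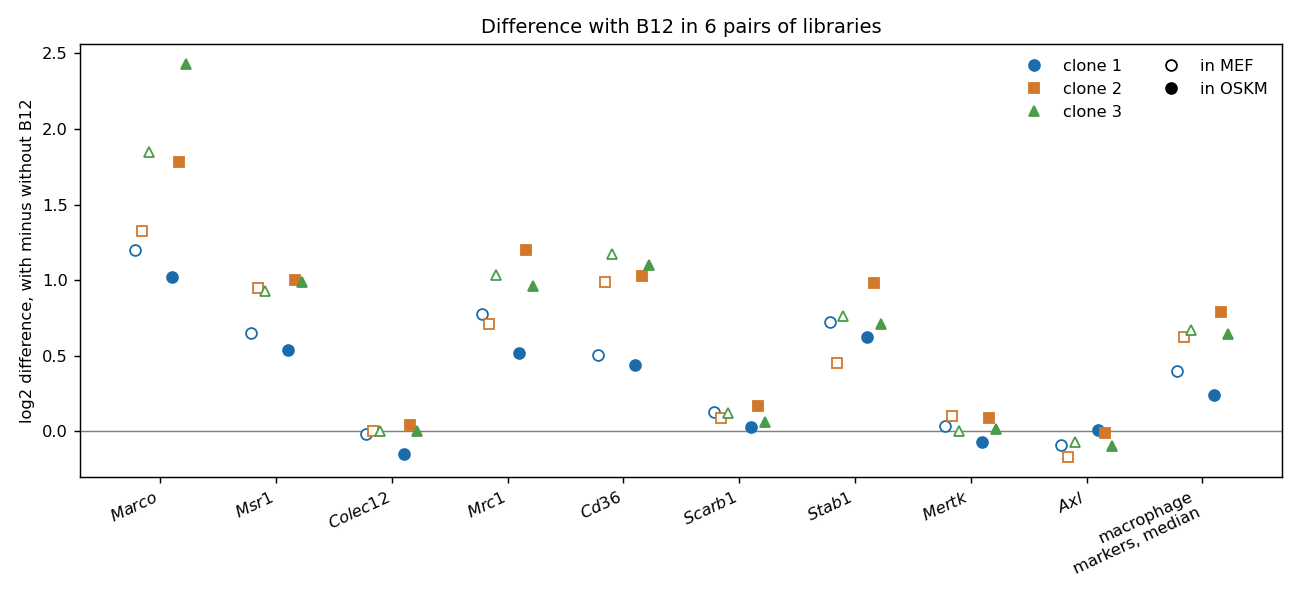
Log2 CPM with B12 minus without B12 for each receptor in 6 pairs of libraries (open symbols in MEF, filled in OSKM, shape and colour by clone), with the median of 12 macrophage markers at the right. Marco, Msr1, Mrc1, Cd36 and Stab1 lie above 0 in every pair, with Marco the highest at 1.02 to 2.43, and Colec12, Mertk and Axl lie about 0.

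**Figure D4:**
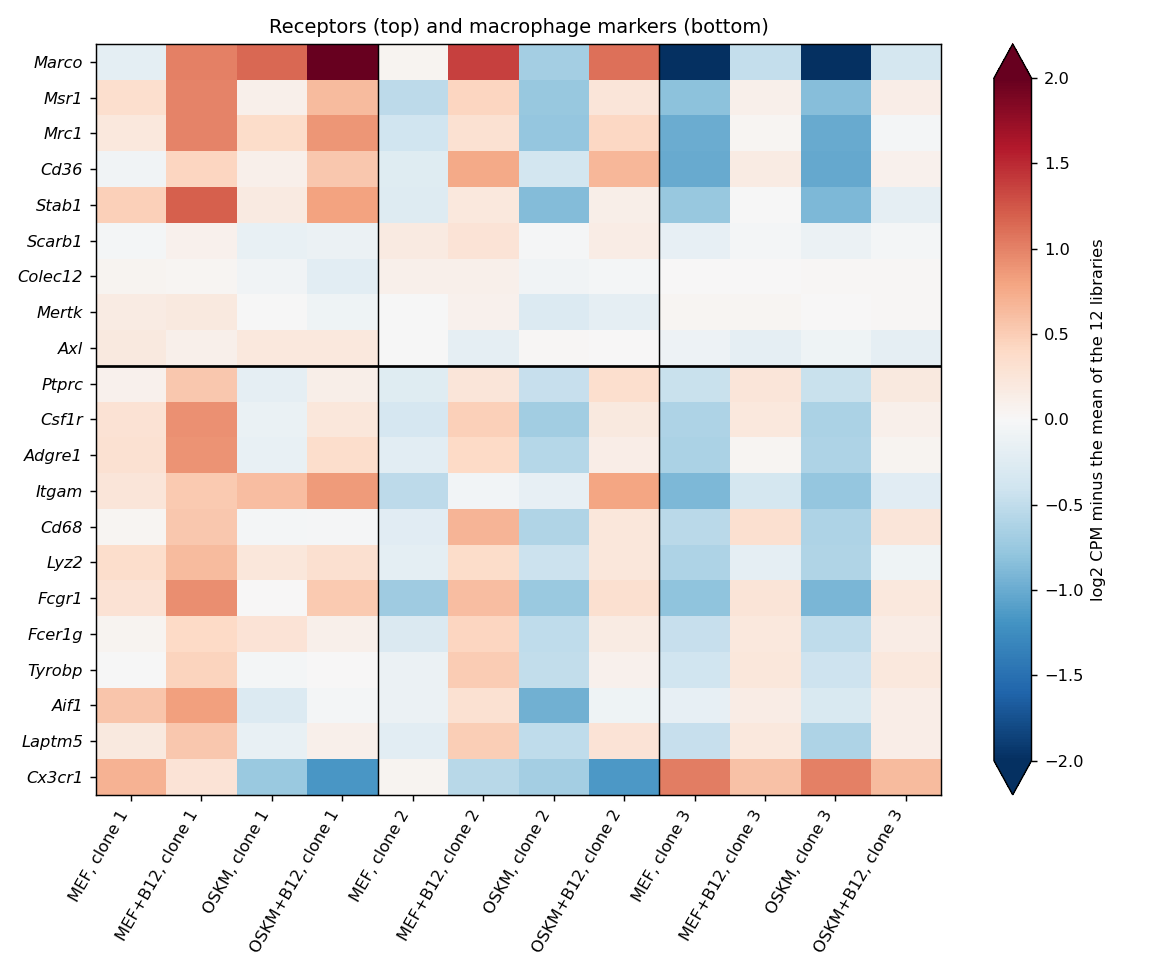
Heat map of log2 CPM minus the mean of the 12 libraries for 9 receptors (above the line) and 12 macrophage markers (below it), with libraries in columns by clone. Columns with B12 are higher for Marco, Msr1, Mrc1, Cd36, Stab1 and most markers, and Cx3cr1 runs the other way. The colour scale ends at 2 and -2.

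Markers of other cell types were compared in the same way. Of 12 fibroblast markers, 0 passed for B12 in edgeR, with a median of -0.11, while 4 had an unadjusted p under 0.05, all 4 lower, and DESeq2 called 1 lower. Of 8 endothelial markers, 4 were tested and 0 passed for B12 in edgeR, at an unadjusted p under 0.05 (0 genes) or in DESeq2 (0 genes), and Emcn and Cldn5 held 9 and 5 counts over all 12 libraries. Of 6 adipocyte markers, 2 were tested, with 0 called by either tool and 0 at an unadjusted p under 0.05, and Cidec and Lep had 0 counts.

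Whether the B12 difference depended on induction was tested by the interaction, the B12 difference in OSKM minus that in MEF. In edgeR, 0 of the 9 receptors passed, 0 at an unadjusted p under 0.05, and 0.00% of all genes passed, while 273 genes had an unadjusted p under 0.05, and DESeq2 likewise called 0 genes with 120 under 0.05. The interaction of Marco was 0.03 with a 95% interval of -1.23 to 1.30. For Msr1 the interval was -0.30 to 0.32, for Mrc1 -0.29 to 0.38, for Cd36 -0.48 to 0.38 and for Stab1 -0.14 to 0.39. Interactions within these bounds were therefore not excluded with 3 clones, and the interval of Marco was the widest. The intervals are not adjusted for the number of genes tested and are not limits of detection.

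Induction lowered 2 receptors. Stab1 fell by 0.28 ± 0.06 on the log2 scale in OSKM averaged over both B12 conditions (0.821-fold, adjusted p = 0.0234), and was lower in 6 of 6 pairs. Mertk fell by 0.17 ± 0.05 (0.888-fold, adjusted p = 0.0467), also lower in 6 of 6 pairs. These were 2 of the 9 receptors tested, against 9.73% of all genes called, 4.46% as higher and 5.26% as lower. With library totals in place of TMM factors, the genes called over the whole table turned from 856 higher and 1009 lower to 1496 higher and 632 lower, and Mertk was no longer called (adjusted p = 0.089). With clone left out of the model 0 receptors were called for induction.

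The fall of Mertk was smallest in clone 3 in both B12 conditions, and that of Stab1 was smallest there without B12. For Stab1 the difference was -0.30, -0.62 and -0.13 without B12 and -0.40, -0.09 and -0.18 with B12 for clones 1, 2 and 3. For Mertk it was -0.18, -0.26 and -0.02 without B12 and -0.28, -0.27 and -0.01 with B12. Neither gene was called without clone 1 or without clone 2 (adjusted p from 0.262 to 0.455), both were called without clone 3 (adjusted p = 0.0107 and adjusted p = 0.0122), and without the OSKM library of clone 1 Mertk was lost (adjusted p = 0.0722).

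The other receptors did not pass for induction. The difference was -0.17 ± 0.07 for Msr1 (adjusted p = 0.163), -0.11 ± 0.04 for Colec12 (adjusted p = 0.136), -0.10 ± 0.04 for Scarb1 (adjusted p = 0.131) and 0.06 ± 0.03 for Axl (adjusted p = 0.276). It was -0.05 ± 0.08 for Mrc1 (adjusted p = 0.727) and 0.00 ± 0.10 for Cd36 (adjusted p = 0.994), with 95% intervals of -0.21 to 0.12 and -0.22 to 0.21. Without clone 3, Scarb1 and Colec12 were called as well, 4 receptors in all. Calls over all genes were also more frequent in that fit, with 3056 of 19231 genes, against 1865 of 19174 with all clones. Macrophage markers also moved with induction, with 3 of 12 called lower (Aif1, Csf1r and Adgre1), against 5.26% of all genes. Itgam was called higher (0.37 ± 0.10), 1 of 12, against 4.46% of all genes, and the median of the list was -0.23. The response differed between clones for Adgre1 (adjusted p = 0.0295) and Cx3cr1 (adjusted p = 0.00504), 2 of 12, against 2.15% of all genes. The median marker difference within pairs was -0.44 to -0.27 in clones 1 and 2 and -0.03 and -0.02 in clone 3. Stab1 was below that median in 4 of 6 pairs and Mertk in 1 of 6, and the part of the markers was not tested. Lists of other cell types moved with induction as well. Of 12 fibroblast markers, 4 were called lower and 0 higher (median -0.15). Of the endothelial markers, 4 were tested and 2 called higher, and of the adipocyte markers, 2 were tested and 1 called lower.

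The difference of Marco with induction varied between the 3 clones. In clone 1 it was higher in OSKM by 1.35 without B12 and by 1.16 with B12 on the log2 scale. In clone 2 the differences were -0.73 and -0.28, and in clone 3 they were -0.47 and 0.12. The average of 0.31 ± 0.29 did not pass (adjusted p = 0.535) and turned to -0.39 without clone 1 and to -0.08 without the OSKM library of that clone. The test of a difference between clones in the induction response gave an adjusted p = 0.0714 for Marco in edgeR, and 0 of 9 receptors passed against 2.15% of all genes, 4 of them having an unadjusted p under 0.05. With DESeq2 Marco passed this test (adjusted p = 0.000725), as it did with no filter on low counts (adjusted p = 2.31e-06) and without the OSKM library of clone 1 (adjusted p = 0.0347). In edgeR it did not pass with DESeq2 size factors (adjusted p = 0.0707), library totals (adjusted p = 0.0625) or at least 10 counts in every library (adjusted p = 0.0744). Nor did it pass without clone 1 (adjusted p = 0.585), clone 2 (adjusted p = 0.26) or clone 3 (adjusted p = 0.474).

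**Figure D5:**
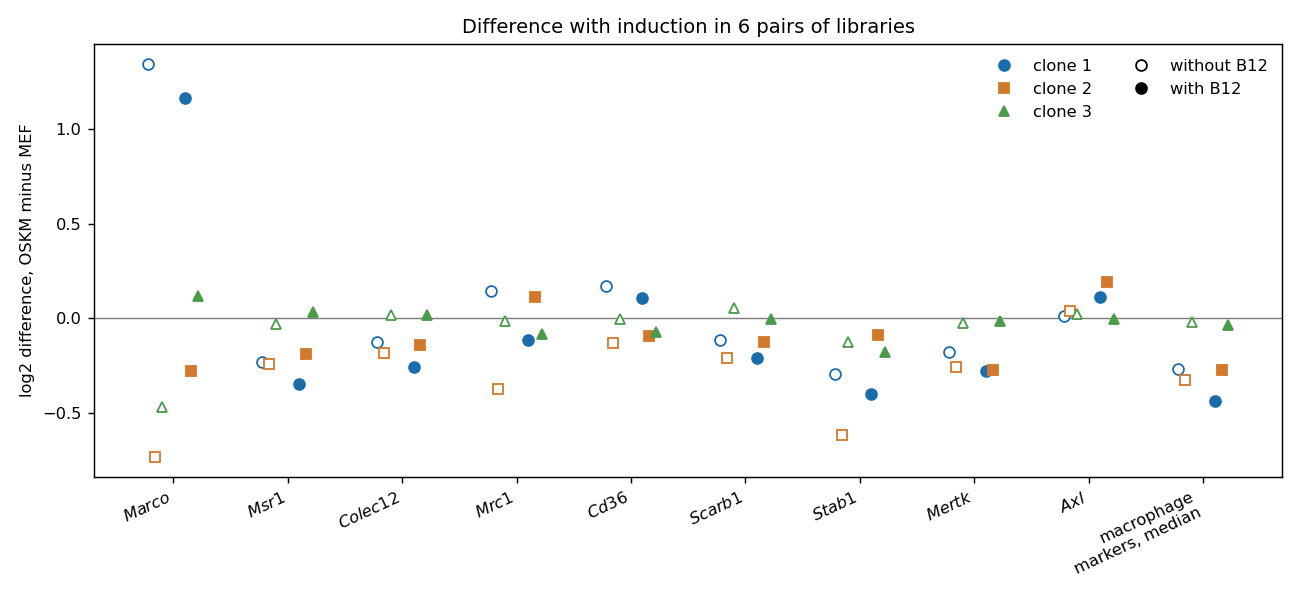
Log2 CPM in OSKM minus MEF for each receptor in 6 pairs of libraries (open symbols without B12, filled with B12, shape and colour by clone), with the median of 12 macrophage markers at the right. Stab1 and Mertk lie below 0 in all 6 pairs, and Marco lies at 1.16 and 1.35 in clone 1 and between -0.73 and 0.12 in the other clones.

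The level of most receptors differed between clones. For clone 1 this cannot be told apart from the later year in its library titles. The test of the clone terms passed for 7 of the 9 receptors, against 37.8% of all genes, and not for Colec12 (adjusted p = 0.49) or Mertk (adjusted p = 0.101). Averaged over the 4 groups, clone 1 was 5.72-fold above clone 3 for Marco (adjusted p = 0.00111), 2.17-fold for Stab1 (adjusted p = 4.46e-06), 2.17-fold for Mrc1 (adjusted p = 2.55e-05), 1.84-fold for Msr1 (adjusted p = 6.72e-05) and 1.62-fold for Cd36 (adjusted p = 0.0019). Axl was 1.25-fold higher in clone 1 than in clone 3 (adjusted p = 0.000477), and Scarb1 was highest in clone 2, at a mean of 88.0 CPM against 76.6 and 74.6 in clones 1 and 3 (adjusted p = 0.00589). Marco ranged from 2.17 to 11.3 CPM in clone 1, 1.54 to 6.49 in clone 2 and 0.334 to 1.94 in clone 3. The summed macrophage markers were 2004 to 2872 CPM in clone 1, 1322 to 2463 in clone 2 and 1224 to 1847 in clone 3. Without clone 1, 4 receptors were called (Marco, Mrc1, Cd36 and Scarb1), and over all genes 1315 of 19102, against 7239 of 19174 with all clones. Without clone 2, Scarb1 was not called (adjusted p = 0.579). Without clone 3, Marco and Cd36 were not called and Mertk was (adjusted p = 0.0441), as it was with library totals (adjusted p = 0.0162).

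The other genes of uptake and clearance were counted from lists, which were chosen with earlier results of these data known. Of 15 other scavenger and mannose receptors, 2 rose and 3 fell with induction (median -0.15), against 4.46% higher and 5.26% lower over all genes. Scara5, the ferritin receptor, rose by 0.89 ± 0.18 (adjusted p = 0.0213) and Scara3 by 0.39 ± 0.07 (adjusted p = 0.0199), while Ly75, an endocytic lectin, fell by 0.42 ± 0.11 (adjusted p = 0.0348) and Pla2r1, a phospholipase receptor, fell by 0.30 ± 0.05 (adjusted p = 0.0172). The test of a difference between clones in the induction response passed for Scara5 (adjusted p = 0.00148) and Scara3 (adjusted p = 0.0176). These were 2 of the 15, against 2.15% of all genes. With B12, 1 rose, Cd68, and 1 fell, Pla2r1, by 0.23 ± 0.05 (adjusted p = 0.0259), with a median of -0.07, against 3.46% higher and 0.381% lower over all genes. Cd68 is also in the list of macrophage markers and was counted there. The close relatives Mrc2 (-0.12 ± 0.05, adjusted p = 0.3) and Stab2 (0.29 ± 0.19, adjusted p = 0.497) did not pass for B12.

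Another list held the bridging molecules that link dying cells to phagocytes and further receptors and signals of efferocytosis. Of 15 genes, 13 were tested, and with induction 4 fell and 2 rose (median -0.11), against 5.26% lower and 4.46% higher over all genes. Gas6, the ligand of Axl and Mertk, fell by 0.41 ± 0.08 (adjusted p = 0.0214) and Mfge8, which bridges phosphatidylserine to integrins, fell by 0.32 ± 0.06 (adjusted p = 0.0201). The receptor Sirpa, which binds the antiphagocytic ligand Cd47, fell by 0.29 ± 0.06 (adjusted p = 0.0246). Timd4, a phosphatidylserine receptor at 0 to 1.29 CPM, rose by 2.17 ± 0.40 (adjusted p = 0.02) and Itgb3 rose by 0.29 ± 0.08 (adjusted p = 0.0489). The test of a difference between clones in the induction response passed for 4 of the 13, against 2.15% of all genes. These were Gas6 (adjusted p = 0.00437), Mfge8 (adjusted p = 0.0263), Itgb3 (adjusted p = 0.0263) and Sirpa (adjusted p = 0.0267), so their averages do not hold alike in every clone. With B12 1 of the 13 passed in edgeR, Sirpa, which rose by 0.36 ± 0.06 (adjusted p = 0.00732), against 3.46% higher and 0.381% lower over all genes. An unadjusted p under 0.05 was found for 4 genes, 2 of them lower, and DESeq2 called 2 higher and 1 lower. The largest difference, that of Timd4 (1.38 ± 0.41, adjusted p = 0.11), did not pass in edgeR. Pros1, the other TAM ligand (-0.09 ± 0.05, adjusted p = 0.394), and the third TAM receptor Tyro3 (-0.12 ± 0.05, adjusted p = 0.284) did not pass for B12.

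Downstream of the receptors, 1 of 11 genes of the engulfment machinery rose with induction, Abca7 (0.23 ± 0.07, adjusted p = 0.0487), and 0 fell in edgeR (2 lower at an unadjusted p under 0.05, and 1 called lower by DESeq2). This is close to the 9.73% of all genes called. The response of Abca7 to induction differed between clones (adjusted p = 0.041), 1 of the 11, against 2.15% of all genes. With B12, Elmo1, which activates Rac during engulfment, rose by 0.44 ± 0.08 (adjusted p = 0.00877), and the adaptor Gulp1 fell by 0.16 ± 0.03 (adjusted p = 0.0149). The proteases Adam10 and Adam17, which shed Mertk, Axl and Cd163 from the cell surface, did not pass in either comparison in edgeR or DESeq2, with 0 at an unadjusted p under 0.05, and lay between -0.04 and 0.05. Of 9 transcription factors of macrophages and scavenger receptor genes, 3 rose with B12, against 3.46% of all genes, and 0 fell in edgeR, in DESeq2 or at an unadjusted p under 0.05. They were Spi1 (PU.1) by 0.66 ± 0.09 (adjusted p = 0.00171), Irf8 by 0.44 ± 0.08 (adjusted p = 0.00761) and Maf by 0.30 ± 0.04 (adjusted p = 0.000859). With induction 1 of the 9 rose, Pparg, and 1 fell, Cebpb, by 0.19 ± 0.05 (adjusted p = 0.0453), against 4.46% higher and 5.26% lower over all genes. DESeq2 called 1 higher and 3 lower, and 4 were lower at an unadjusted p under 0.05 in edgeR. Pparg, a lipid-sensing receptor known to raise Cd36, did not pass for B12 (0.05 ± 0.09, adjusted p = 0.823) and rose with induction by 0.50 ± 0.09 (adjusted p = 0.02). A part of Pparg in the level of Cd36 was not tested.

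The genes whose log2 CPM over the 12 libraries was most like that of Marco and Mrc1 included several myeloid genes. Among 12392 genes compared, the nearest to Marco were Fcgr2b, an inhibitory IgG receptor (Pearson r = 0.980), Folr2, a folate receptor of tissue macrophages (0.946), Hprt (0.946), Cat (0.941) and Ednrb (0.937). The nearest to Mrc1 were Lcp2 (0.985), the chemokine Ccl12 (0.984), Epb41 (0.983), the chemokine Ccl9 (0.975) and Msr1 (0.974). These correlations carry both the clone differences and the B12 differences.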

How the data were processed

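RNA-seq was analysed in 12 libraries, with groups and clones from the labels. Per the study's methods, the authors aligned read pairs with STAR (2.5.2 in the submitters' processing notes) to mm10 (GRCm38) and counted them reverse-stranded with featureCounts on Ensembl 97. The table deposited by the authors holds raw counts with the flow cells of a library added together. The study's methods give 1 mg/ml doxycycline where the labels give 1 µg/ml. Symbols, exon lengths and 1-based coordinates came from GENCODE M21 (GRCm38), which matched 55480 identifiers and left 93 unmatched.

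CPM were computed here with TMM-scaled totals, with a prior count of 2 on the log2 scale. The quasi-likelihood test of edgeR 4.0.16 (R 4.3.3) was run on the counts of all 12 libraries, with filterByExpr (19174 genes), clone as a block and the 4 groups, and Benjamini-Hochberg adjustment over all genes tested with a threshold of 0.05. Every adjusted p is from this test unless DESeq2 1.42.0 is named. F tests covered the clone terms and clone by state. The fit was tested on simulated data. The biological coefficient of variation was 8.04%, and with no molecular identifiers counting precision does not cover amplification.

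The clone is an embryo, so it pairs the libraries. Libraries of 1 clone deviated together from their group means (correlations of 0.270 to 0.687 over 18 pairs, against at most 0.170 between clones). Named genes are all members, the 2 to 4 called genes of largest difference in each list, and the 5 genes of highest correlation with Marco and with Mrc1. Mrc2, Stab2, Pros1, Tyro3 and the genes that show a cell type are outside this rule and were chosen after values were seen, as were the promoter letters. Members and lists were chosen with earlier results of these data known. Alternatives were DESeq2, DESeq2 size factors, library totals, no filter, at least 10 counts in every library, a model without the clone, and the omission of each clone or of the OSKM library of clone 1, which stood apart in an earlier analysis.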

Additional observations from a re-analysis of the deposited data

How the results depend on the processing

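The receptors past the threshold for B12, 5 in number and chosen on this contrast, so that the counts describe the fits and support nothing, were 3 to 5 when libraries were left out, without Marco and Cd36 when clone 2 was left out and without Marco when clone 3 was. The 2 called for induction became 1 with library totals, and 0 to 4 when a clone or the OSKM library of clone 1 was left out. The 0 called for a clone-dependent response became 1 with DESeq2 and 1 with no filter, Marco each time, and 0 to 2 when libraries were left out, Marco and Colec12 being called without the OSKM library of clone 1. The 7 called for clone level were 4 to 8 when libraries were left out, the eighth being Cd163, which passed the filter and was called without the OSKM library of clone 1. The cause of these changes was not tested. With no replicate block for the clone, 0 receptors were called for induction, 0 for B12 and 0 for the interaction. The clone tests have no value without the block.

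The differences that changed sign were all of results that did not pass. For B12, Colec12 was 0.0062 with library totals and 0.0141 without clone 1, and Mertk was -0.0037 without clone 2. With library totals the induction difference of Cd36 was 0.0436 and the interaction of Msr1 -0.0053. Cd36 for induction was 0.0015 with at least 10 counts in every library and 0.0048 with no replicate block, where the interactions of Marco, Msr1 and Mrc1 were -0.0209, -0.0103 and -0.0044. When libraries were left out, the induction difference ran from -0.39 to 0.77 for Marco and from -0.10 to 0.0567 for Cd36. The interaction then ran from -0.19 to 0.98 for Marco, -0.0299 to 0.0741 for Msr1, -0.18 to 0.20 for Mrc1, -0.0948 to 0.16 for Cd36, -0.0835 to 0.23 for Stab1, -0.087 to 0.0029 for Scarb1 and -0.0714 to 0.0135 for Colec12.

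Over all genes, the 1865 called for induction became 0 with no replicate block, 10, 3 and 3056 without clones 1, 2 and 3, and 771 without the OSKM library of clone 1. The 736 called for B12 became 90 with no replicate block, 34 without clone 2 and 317 without clone 3. The 413 called for a clone-dependent response became 1257 with no filter, 724, 195 and 0 without clones 1, 2 and 3 and 838 without the OSKM library of clone 1, and the 7239 for clone level became 1315 without clone 1. With 3 embryos and 1 library each per group, counts of calls rest on single clones. Depth limits Cd163 and the clone 3 values of Marco, whose lowest library held 26 counts.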
